A study of Mus musculus with 2 samples.

Results

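The genes described here are 43 cell division genes among the 27999 genes counted in the lungs of 2 mice with breast cancer metastases. They were chosen by name for their part in DNA synthesis (S phase) or in chromosome segregation (G2 and mitosis, G2/M), and all 43 were present in both count tables. Of them, 16 formed an S list and 26 a G2/M list. Stmn1, a microtubule-destabilising protein that non-dividing cells can also hold, was measured but belonged to neither list.

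Both mice were female FVB/NJ animals that received Met-1 cells through the tail vein at 10 weeks of age. Met-1 is a mammary carcinoma line derived from the MMTV-PyMT mouse, in which a viral promoter drives the polyoma middle T oncogene in mammary epithelium. Whole lungs were dissociated 1 week later, as a model of low metastatic burden, or 3 weeks later, as a model of high metastatic burden, and the RNA of single cells was sequenced with the droplet method of 10x Genomics. Each burden was 1 mouse and 1 library, no lung without tumour cells was part of the pair, and burden cannot be told apart from the individual mouse, from the time after injection or from the library. No test between burdens was therefore possible, and the intervals below, all at 95%, cover counting error only.

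A dividing cell first licenses its origins of replication with the MCM helicase, then copies its DNA with clamp, polymerase and nucleotide-synthesis proteins. It then enters mitosis under cyclin B and Cdk1 and separates its chromosomes under the control of kinetochore, spindle and anaphase-promoting factors. The S genes are known targets of E2F factors, and many G2/M genes are known targets of the MuvB complex, which binds a promoter element called CHR (cell cycle genes homology region), often beside CCAAT boxes bound by NF-Y. In the adult lung most resident cells are out of the cycle, whereas alveolar macrophages can renew themselves by division.

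The promoters of 4 members show these elements, with matches in capitals. Each sequence comes from RefSeq on GRCm38.p6 and runs from 250 bases before to 50 bases after the gene start. Cdc20, the activator of the anaphase-promoting complex, lies on the minus strand at chr4:118437294-118437593. Plk1, a mitotic kinase, lies on the plus strand at chr7:122159185-122159484. Ccnb1, which encodes cyclin B1, lies on the minus strand at chr13:100786437-100786736. Mcm5, a subunit of the replicative helicase, lies on the plus strand at chr8:75109259-75109558 and stands for the S list.
Cdc20: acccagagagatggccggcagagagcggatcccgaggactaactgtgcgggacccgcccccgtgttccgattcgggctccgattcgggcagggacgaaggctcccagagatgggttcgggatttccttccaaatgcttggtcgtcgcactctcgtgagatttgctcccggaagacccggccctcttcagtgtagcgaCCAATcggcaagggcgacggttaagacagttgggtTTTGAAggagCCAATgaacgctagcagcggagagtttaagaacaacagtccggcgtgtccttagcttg
Plk1: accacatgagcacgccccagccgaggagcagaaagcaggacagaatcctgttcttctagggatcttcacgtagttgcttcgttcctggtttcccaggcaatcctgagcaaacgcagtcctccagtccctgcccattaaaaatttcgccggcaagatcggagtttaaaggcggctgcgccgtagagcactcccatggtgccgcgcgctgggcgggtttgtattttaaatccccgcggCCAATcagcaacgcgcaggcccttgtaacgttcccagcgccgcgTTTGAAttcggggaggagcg
Ccnb1: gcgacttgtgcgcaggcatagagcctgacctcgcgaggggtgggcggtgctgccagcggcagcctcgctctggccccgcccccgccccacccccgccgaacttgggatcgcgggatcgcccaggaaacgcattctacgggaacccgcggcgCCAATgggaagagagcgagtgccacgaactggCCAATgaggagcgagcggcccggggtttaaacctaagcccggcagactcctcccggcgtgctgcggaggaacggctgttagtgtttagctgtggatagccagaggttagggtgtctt
Mcm5: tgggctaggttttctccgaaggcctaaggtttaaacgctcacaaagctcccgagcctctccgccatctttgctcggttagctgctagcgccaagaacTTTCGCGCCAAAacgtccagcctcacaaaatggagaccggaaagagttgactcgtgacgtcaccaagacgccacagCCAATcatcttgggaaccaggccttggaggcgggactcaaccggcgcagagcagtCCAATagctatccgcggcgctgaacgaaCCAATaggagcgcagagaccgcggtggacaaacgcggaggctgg

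The elements searched for, on both strands, were spelled as follows: CHR as TTTGAA or TTCGAA, the CCAAT box as CCAAT, and E2F sites as TTTCCCGC, TTTGGCGC, TTTCGCGC or TTTGCCGC. Cdc20 and Plk1 held both CHR and CCAAT letters, whereas Ccnb1 held 2 CCAAT boxes and no CHR match in this window. In Mcm5, 2 E2F matches on opposite strands overlapped, beside 3 CCAAT boxes. The promoter table held 35 of the 43 members. CHR letters were found in 17 of 22 G2/M promoters (77.3%) and in 2 of 13 S promoters (15.4%), against 19.4% of all 27025 promoters. CCAAT boxes stood in 20 of 22 G2/M promoters (90.9%) and 9 of 13 S promoters (69.2%), against 37.9% of all. E2F letters stood in 5 of 13 S promoters (38.5%) and in 1 of 22 G2/M promoters (4.55%), against 2.32% of all. These matches are descriptions of the letters and not of bound sites.

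The low-burden library held 2473 cells that passed the filters, with a median of 4073 unique molecular identifiers (UMIs, counted RNA molecules) per cell. At high burden 3033 cells were kept, at a median of 13998, and 11 cell barcodes occurred in both. Because depth differed, every cell was thinned to 2000 UMIs before cells were classed or called dividing, and no kept cell was shallower. Classes were gated by the number of their marker genes with a UMI in that draw. A single class was found for 1874 low-burden (75.8%) and 1879 high-burden cells (62%), several classes for 280 and 146, and none for 319 and 1008. The gated metastatic class held 1205 CPM (counts scaled to a class total of 1000000 UMIs) of its 10 markers. The other high-burden classes held 85.5 to 285 CPM. This contrast was set in part by the gates, since cells that met the metastatic gate and another were counted under several classes. High-burden cells of several classes held 311 CPM of these markers, and those of no class held 756 CPM. Xist, which female host cells transcribe from the inactive X chromosome, was at 34.5 and 39.1 CPM in non-dividing and dividing metastatic cells and at 702 CPM in non-dividing macrophages. Clusters built without any of the division genes gave the same name to 96.6% of gated metastatic cells and to 97.1% of high-burden macrophages, but to none of the gated B cells. At high burden they did so for 97.5% of endothelial, 91.8% of alveolar type 2, 88.2% of T or NK and 72% of stromal cells. For other airway or alveolar epithelium it was 40.7%.

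A cell was called dividing when it had UMIs of at least 3 different genes of the S list or at least 3 of the G2/M list, and a stricter count required 5. At high burden, 438 of 766 metastatic cells were dividing (57.2%, exact Clopper-Pearson binomial interval 53.6% to 60.7%). Among macrophages, gated by genes such as C1qa and Csf1r, 273 of 768 were dividing (35.5%, 32.2% to 39.0%). T or NK cells had the highest share, 22 of 34 (64.7%), but with so few cells its interval of 46.5% to 80.3% included the share of metastatic cells. With 5 genes required, the shares were 36.2% in metastatic cells, 20.3% in macrophages and 52.9% in T or NK cells. Metastatic cells and macrophages did not overlap in their intervals under either count.

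Free RNA in the droplets and mixed droplets can both give a background, and their parts were not tested. The level of that background was read from ciliated cells and neutrophils, which do not divide. Of these, 1 of 23 high-burden cells (4.35%, 0.11% to 21.9%, median 12867 UMIs before thinning) had UMIs of 3 genes of a list. So did 1 of 57 low-burden cells (1.75%, median 5721 UMIs). None had 5, which at a limit of 3 cells allows a high-burden share of up to 13%, where the exact upper end is 14.8%. Without thinning, the same call would have marked 73.9% of these non-dividing high-burden cells, 98.6% of metastatic cells, 89.3% of macrophages and 91.2% of T or NK cells, and so it did not separate classes at full depth. Metastatic markers at high burden summed to 110 CPM in ciliated cells and neutrophils, 93.8 CPM in T or NK cells, 108 CPM in macrophages and 128 CPM in endothelial cells. In alveolar type 2, B and stromal cells they summed to 216, 284 and 285 CPM. The same background was set beside all classes, and how far it holds for each was not tested.

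Endothelial cells of the high-burden lung were dividing in 20 of 122 cases (16.4%, 10.3% to 24.2%) by 3 genes, within the interval of the non-dividing cells, and in 10 cases (8.2%, 4.0% to 14.6%) by 5 genes, below the 13% that a count of 0 among 23 cells allows. Up to 16 G2/M genes were seen in a single endothelial cell, whereas the ciliated cells and neutrophils held at most 3. Stromal cells had 4 of 50 (8.0%, 2.22% to 19.2%) by 3 genes and 0 by 5 genes, which allows up to 6.0%, and no stromal cell held more than 3 G2/M genes. Stromal division was thus not detectable above the level of the ciliated cells and neutrophils at this depth and number of cells. By the clusters, 2 of the 4 stromal cells called dividing lay in a cluster of no class, 1 in a metastatic cluster and 1 in a stromal cluster. Alveolar type 2 cells, the surfactant-producing epithelium, had 5 of 49 (10.2%, 3.4% to 22.2%) by 3 genes and 2 by 5 genes (4.08%), both inside the interval of the non-dividing cells. Up to 6 G2/M genes were seen in a type 2 cell. The G2/M list was at 832 CPM (Poisson interval 748 to 924) at high burden against 423 CPM (356 to 500.3) in the non-dividing cells. The metastatic markers were also higher in type 2 cells, at 216 CPM against 110 CPM. At low burden the type 2 cells held 45.0 CPM of the G2/M list, a log2 ratio of 4.21 (3.65 to 4.83). The part of tumour RNA or of mixed droplets in these levels was not tested.

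**Figure D1:**
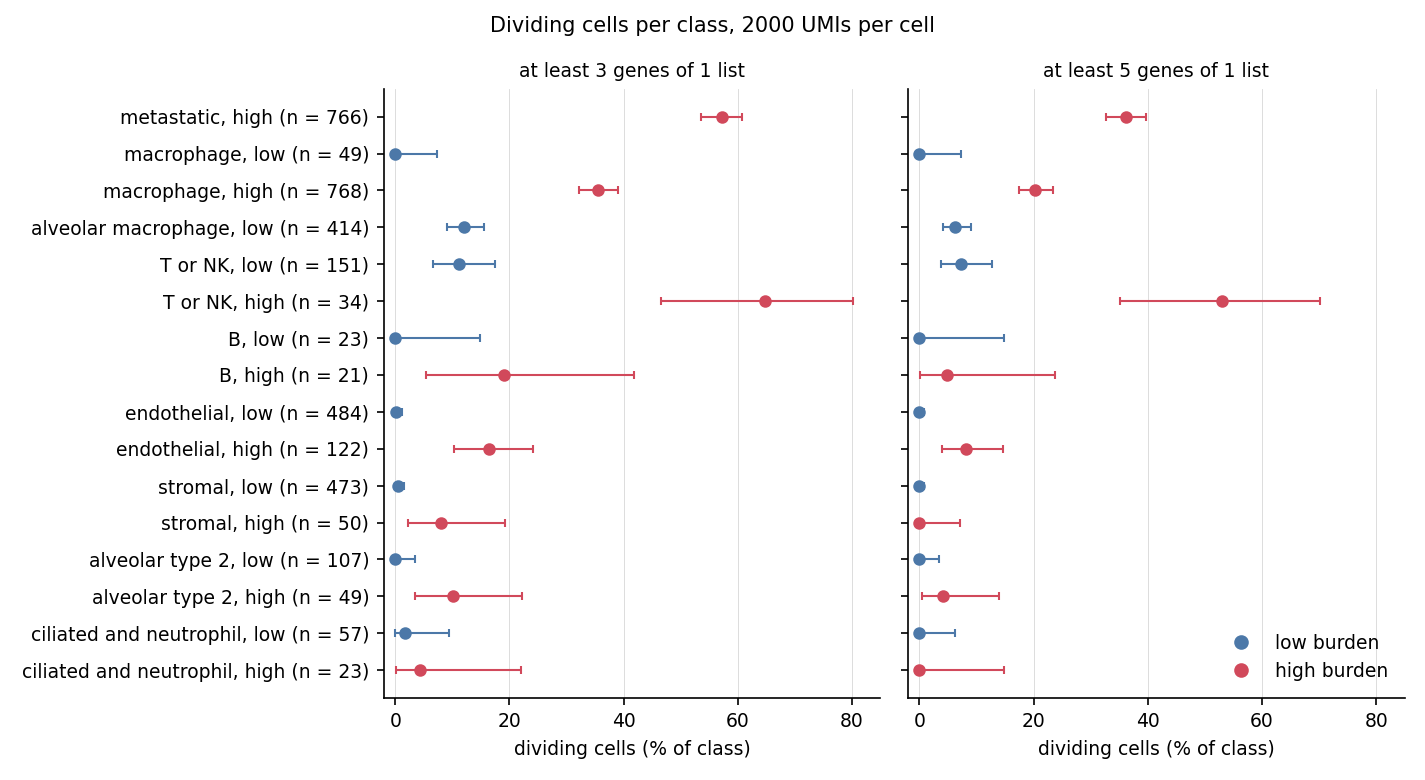
Share of dividing cells in each class (x axis, percent of the cells of that class) at low (blue) and high burden (red), with exact binomial intervals, where at least 3 genes (left) or 5 genes (right) of a list were required. Metastatic cells (57.2%) and high-burden macrophages (35.5%) lie to the right of the ciliated cells and neutrophils (4.35%), while low-burden endothelial and stromal cells lie at or under 0.423%.

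At low burden, dividing cells were 88 of 2473 (3.56%) against 1243 of 3033 (41.0%) at high burden. The libraries differed in the classes they held, with 1 gated metastatic cell at low burden, not dividing, against 766 at high burden. Metastatic cells made up 35.2% of the high-burden dividing cells and cells of no class 35.6%, so these library shares do not compare like cells. More of the low-burden dividing cells were alveolar macrophages, the resident macrophages of the air spaces, than of any other class, 50 of 88 (56.8%). Within that class the share was 12.1% (50 of 414, 9.10% to 15.6%), and 6.28% by 5 genes. T or NK cells followed with 17 of 151 (11.3%, 6.70% to 17.4%). In the ciliated cells and neutrophils of that library the interval reached 9.39% by 3 genes. By 5 genes they had 0 of 57, which allows up to 5.26% (exact upper end 6.27%). T or NK cells were then at 7.28% (3.69% to 12.7%) and alveolar macrophages at 6.28% (4.14% to 9.07%). Under both counts the intervals of these classes thus overlapped that of the non-dividing cells. The other macrophages had 0 of 49, which allows up to 6.12%, and B cells 0 of 23, which allows up to 13%. Endothelial cells had 1 of 484 (0.207%) and stromal cells 2 of 473 (0.423%), both under the share of the non-dividing cells. Alveolar macrophages could not be followed to high burden, where 2 cells passed their gate.

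The number of G2/M genes per cell differed in shape between classes. In metastatic cells its median was 3 and its maximum 16, and 6.53% of cells had no UMI of either list in the draw, Stmn1 not counted. In high-burden macrophages the median was 1 and the maximum 14, with 18.4% of cells free of both lists. In low-burden alveolar macrophages the median was 0, yet the maximum was 13. The distribution therefore ran over a long tail in these classes and stopped at 3 genes in stromal cells.

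**Figure D2:**
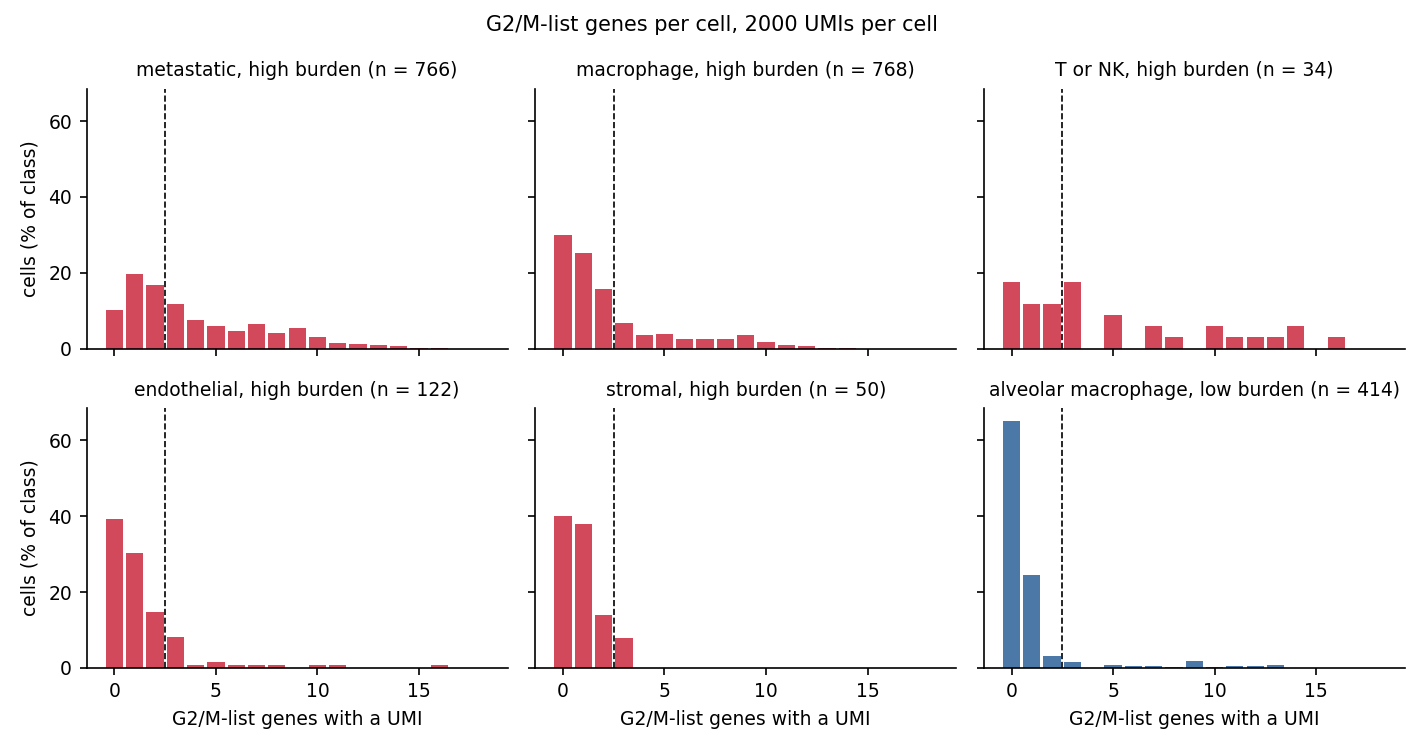
Number of G2/M-list genes with a UMI per cell (x axis) and the percent of the cells of each class (y axis) after thinning to 2000 UMIs. The dashed line stands before 3 genes, the number required for a dividing cell, and the high-burden stromal cells end at 3 while metastatic cells reach 16.

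The lists that called the dividing cells also differed. Of the 438 dividing metastatic cells, 301 (68.7%) met the G2/M count alone, 109 (24.9%) both counts and 28 (6.39%) the S count alone. Among the 273 dividing high-burden macrophages these numbers were 173, 49 and 51, so that 18.7% were called by S genes alone. Of the 50 dividing alveolar macrophages at low burden, 20 (40.0%) were called by S genes alone, 15 by both and 15 by G2/M genes alone. T or NK cells had 8 called by S genes alone of 17 at low burden and 2 of 22 at high burden. The 20 dividing endothelial cells were nearly all called by G2/M genes, 17 by these alone. Because the lists differ in length and in the levels of their genes, these fractions compare classes and do not measure the length of a phase.

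**Figure D3:**
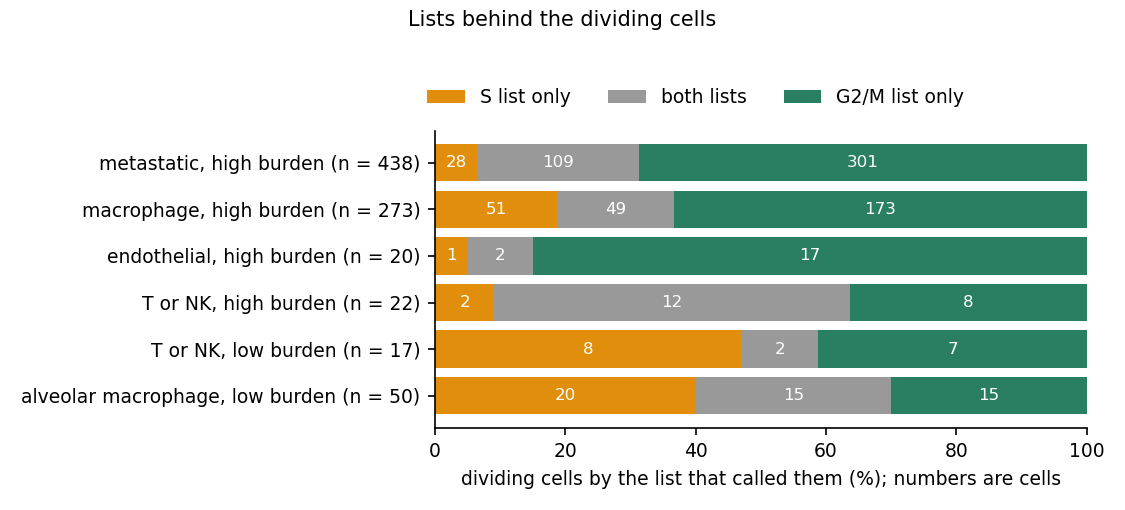
Dividing cells of 6 class and burden combinations by the list that called them (x axis, percent of dividing cells, with numbers of cells in the bars). S genes alone (orange) called 6.39% of dividing metastatic cells and 40.0% of dividing low-burden alveolar macrophages.

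Summed over all UMIs of a class, the 43 genes made up 4274 CPM in metastatic cells, 2447 CPM in macrophages, 5147 CPM in T or NK cells and 1840 CPM in endothelial cells of the high-burden lung. Stromal cells held 860 CPM, near the 687 CPM of the ciliated cells and neutrophils. At low burden the same sums were 1238 CPM in alveolar macrophages, 374 CPM in other macrophages, 2020 CPM in T or NK cells, 758 CPM in endothelial cells, 302 CPM in stromal cells and 209 CPM in the non-dividing classes. The low-burden endothelial sum consisted mostly of Stmn1, at 538 CPM, with 56.3 CPM from the whole G2/M list.

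**Figure D4:**
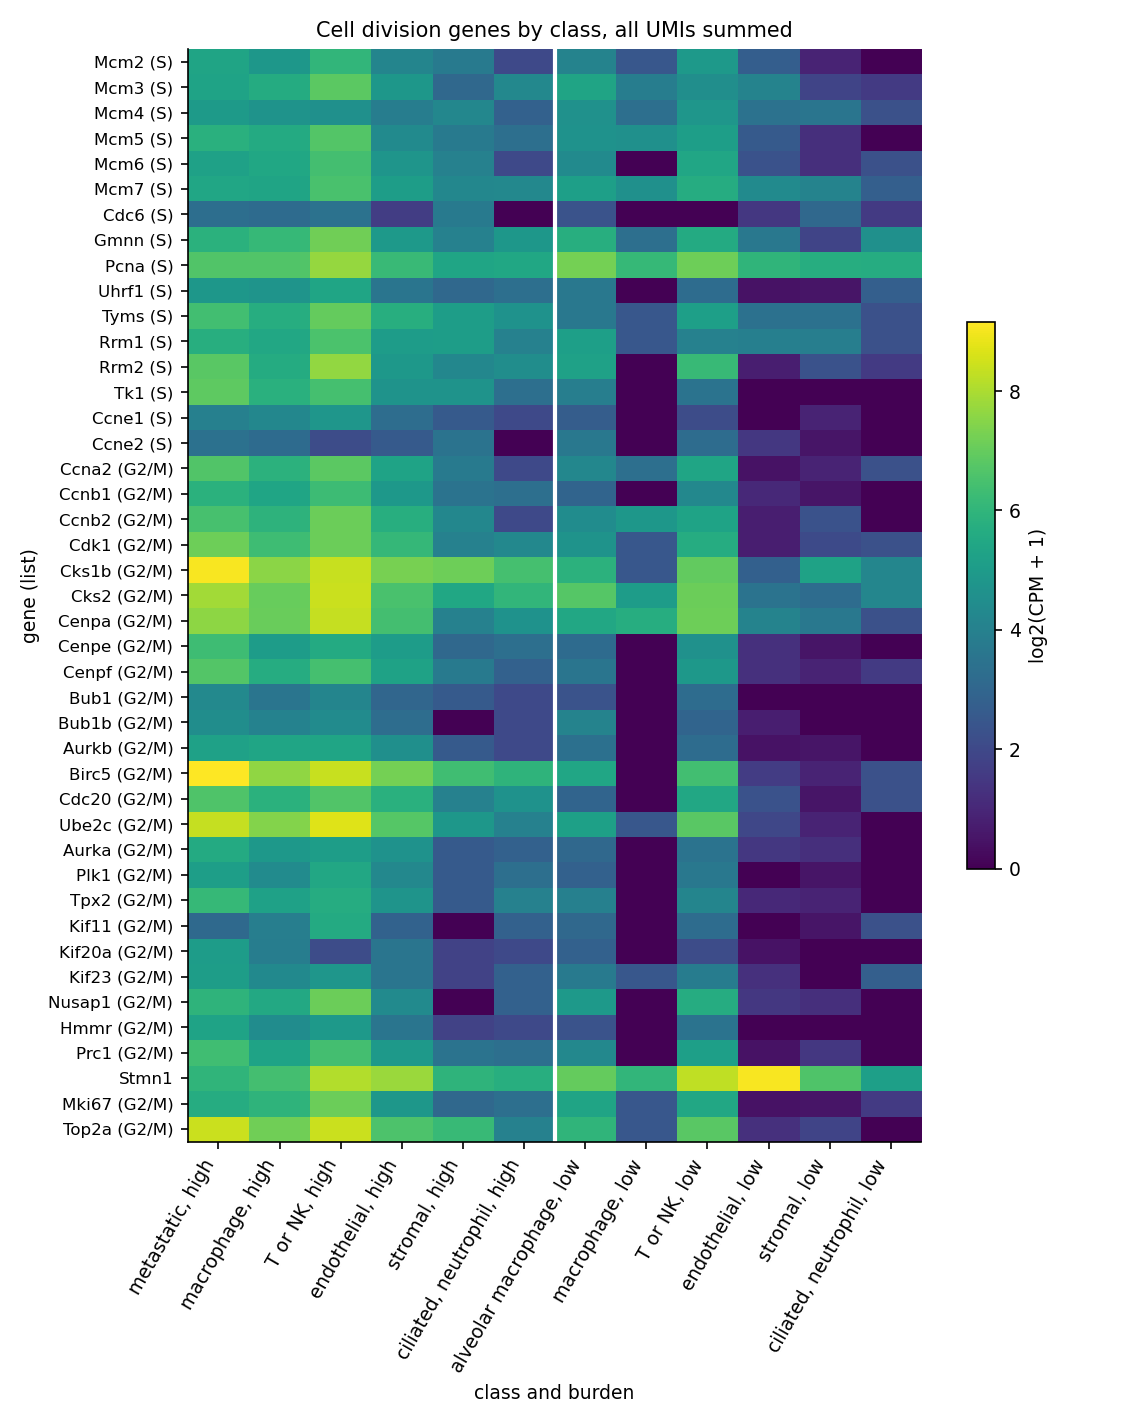
Level of each of the 43 genes (rows, with their list in brackets) in each class (columns) as log2(CPM + 1) of the summed UMIs, high burden on the left of the white line and low burden on the right. Birc5, Cks1b and Top2a reach 568, 534 and 339 CPM in metastatic cells, and Stmn1 reaches 538 CPM in low-burden endothelial cells.

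Among the S genes, the licensing factors were close in metastatic cells and macrophages. Mcm2 to Mcm7, the helicase subunits, lay between 30.6 and 55.7 CPM in metastatic cells and between 24.8 and 48.7 CPM in macrophages. Mcm3 was slightly lower in metastatic cells, with a log2 ratio of -0.32 (exact interval -0.50 to -0.15). Gmnn, the inhibitor that prevents a second round of licensing, was at 55.8 CPM in metastatic cells and 68.8 CPM in macrophages. Cdc6, which loads the helicase, was at 8.92 and 8.2 CPM. Pcna, the sliding clamp of the polymerases, was at 101 CPM in both, and Uhrf1, which keeps DNA methylation through replication, was at 27.4 and 25.7 CPM. The cyclins that start S phase were low in both classes, Ccne1 at 14.7 and 18.0 CPM and Ccne2 at 9.63 and 8.08 CPM.

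The nucleotide-synthesis genes were spread more widely. Rrm2, the regulated subunit of ribonucleotide reductase, was at 112 CPM in metastatic cells and 48.0 CPM in macrophages, a log2 ratio of 1.23 (1.07 to 1.38). Tk1, thymidine kinase, was at 116 and 55.0 CPM, a ratio of 1.08 (0.94 to 1.23). Tyms, thymidylate synthase, followed at 81.6 and 50.8 CPM (0.68, 0.53 to 0.84). Rrm1, the other reductase subunit, was at 52.0 and 44.2 CPM (0.23, 0.06 to 0.41). Of the 16 S genes, 2 (12.5%), Rrm2 and Tk1, were 2-fold or more higher in metastatic cells, fewer than the 22.3% of all 12638 genes past the filter, and with scaling by the median of ratios neither was.

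The G2/M genes were higher in metastatic cells than in macrophages for 23 of 26 members (88.5%, against 62.8% of all genes past the filter), and 7 of them (26.9%) by 2-fold or more, near the 22.3% of all genes. Birc5, the survivin subunit of the chromosomal passenger complex, was at 568 CPM in metastatic cells and 199 CPM in macrophages, a log2 ratio of 1.51 (1.44 to 1.59). Cks1b, a Cdk-binding protein, was at 534 and 188 CPM, a ratio of 1.5 (1.43 to 1.58). Its relative Cks2 was at 236 and 131 CPM (0.85, 0.76 to 0.95). Top2a, the topoisomerase that untangles sister chromatids, was at 339 and 141 CPM (1.27, 1.18 to 1.35). The kinetochore motor Cenpe (78 and 32.6 CPM), the kinetochore protein Cenpf (103 and 49.6 CPM), the cytokinesis motor Kif20a (32.0 and 13.6 CPM) and the midzone protein Prc1 (79.5 and 38.9 CPM) made up the rest of the 7.

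The cyclins and Cdk1 differed less between the classes. Ccna2 was at 99.8 CPM in metastatic cells and 58.3 CPM in macrophages, Ccnb1 at 56.4 and 40.8 CPM, Ccnb2 at 88.3 and 59.6 CPM and Cdk1 at 140 and 78.5 CPM. The log2 ratios of these 4 genes ran from 0.47 for Ccnb1 to 0.84 for Cdk1. Cdc20 was at 98.4 and 56.1 CPM, and Ube2c, the E2 enzyme of the anaphase-promoting complex, at 328 and 173 CPM. Cenpa, the histone of the centromere, was at 191 and 131 CPM. The checkpoint kinases Bub1 (18.8 and 10.7 CPM) and Bub1b (21.6 and 15.8 CPM) had ratios of 0.81 and 0.45.

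The spindle genes Aurka (47.3 and 28.6 CPM), Plk1 (33.8 and 20.1 CPM), Tpx2 (68.8 and 37.1 CPM), Kif23 (33.1 and 19.1 CPM), Nusap1 (60.3 and 44.9 CPM) and Hmmr (38.3 and 21.1 CPM) lay between 0.43 and 0.89 on the log2 scale. In contrast, 3 G2/M genes were lower in metastatic cells than in macrophages. Kif11, the motor that pushes spindle poles apart, was at 7.67 CPM in metastatic cells and 14.0 CPM in macrophages (log2 ratio -0.87, -1.23 to -0.50). Mki67, which coats mitotic chromosomes and is the usual proliferation marker, was at 50.3 and 60.4 CPM (-0.26, -0.42 to -0.11). Aurkb, the kinase of the passenger complex, was at 36.9 and 40.6 CPM (-0.14, -0.33 to 0.05), an interval that includes 0. Stmn1 was also lower, at 62.1 and 84.4 CPM (-0.44, -0.58 to -0.31).

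Of all 43 members, 9 were 2-fold or more higher in metastatic cells than in macrophages and 0 lower, where 22.3% of 12638 genes past the filter were higher and 14.1% lower. Against all other gated high-burden cells, 13 of 43 were 2-fold or more higher and 0 lower, where 13.6% of genes were higher and 22.4% lower. The summed members had a log2 ratio of 0.93 (0.91 to 0.95) in that comparison, with 0.47 for the S list and 1.13 for the G2/M list. Scaling by the median of ratios over genes lowers every ratio against macrophages by 0.25 and against other gated cells by 0.11. Against macrophages it leaves 4 members 2-fold or more higher, Birc5, Cks1b, Top2a and Cenpe, and puts Kif11 2-fold or more lower, where 16.8% of genes are higher and 17.3% lower. Genes above zero by less than that shift, such as Mcm7, Uhrf1 and Cdc6, change sign. Against other gated cells it leaves 9 members, where 11.6% of genes are higher.

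Since a larger share of metastatic cells was dividing, the dividing cells of both classes were also compared with each other. Their S lists differed little, at 1064 CPM in 438 metastatic cells and 1033 CPM in 273 macrophages (log2 ratio 0.04, -0.01 to 0.10), whereas their G2/M lists stood at 4639 and 3377 CPM (0.46, 0.43 to 0.49). Birc5 was 2-fold or more higher in dividing metastatic cells (log2 ratio 1.11, 1.03 to 1.2) and Kif11 2-fold or more lower (-1.54, -1.91 to -1.17), and no other member passed 2-fold. By comparison, 21.7% of all genes were 2-fold or more higher and 13.3% lower between these cells. Cks1b had a ratio of 1.00 (0.91 to 1.08), just under the limit. Mki67 was lower in dividing metastatic cells (-0.84, -1.0 to -0.67), as were Stmn1 (-0.97), Aurkb (-0.73) and Ccne1 (-0.73). The other scaling lowers these ratios by 0.17, to -0.13 (-0.18 to -0.07) for the S list and 0.29 (0.26 to 0.32) for the G2/M list, and takes Birc5 under 2-fold and Stmn1 and Mki67 past 2-fold lower. By the number of cells with a UMI, Mki67 was seen in 16.0% of dividing metastatic cells and 26.0% of dividing macrophages, Birc5 in 67.6% and 55.3%, and Ccne1 in 3.88% and 3.66%. These cells were called by the same genes from 2000 UMIs, out of medians of 25952 and 12549, and more of the macrophages were called by S genes alone, so the sums are descriptions and the part of the call in them was not tested.

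**Figure D5:**
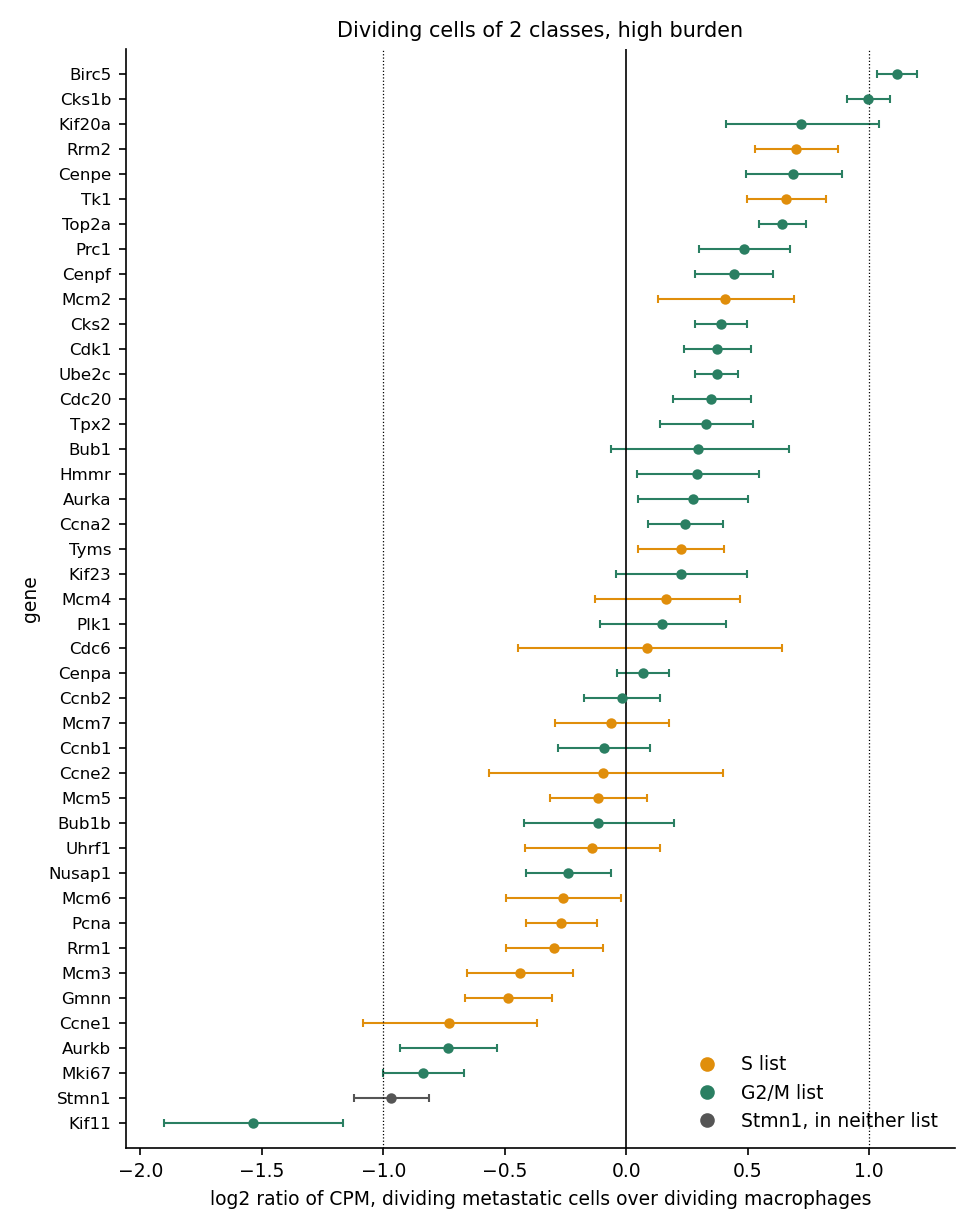
Log2 ratio of CPM (x axis) of each of the 43 genes in dividing metastatic cells over dividing macrophages of the high-burden lung, with exact counting intervals. Dotted lines mark 2-fold, passed by Birc5 (1.11) and Kif11 (-1.54), and the S genes (orange) run from -0.73 for Ccne1 to 0.70 for Rrm2.

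No dividing cell was found among the low-burden macrophages and 273 were found at high burden. The summed members stood at 374 CPM in the 49 low-burden and 2447 CPM in the 768 high-burden cells, a log2 ratio of 2.71 (2.40 to 3.04), from 81 UMIs at low burden. These were different cells as well as different burdens. Of the 49 low-burden macrophages, 39 lay in 1 cluster with 19 high-burden macrophages, of which 5 were dividing, whereas the clusters with the most high-burden macrophages held 364 and 269 of them beside 1 and 4 low-burden cells. All 43 genes had under 20 UMIs at low burden and passed the filter of 20 UMIs through their high-burden counts, so their direction was largely set by the filter. By description, 30 were 2-fold or more higher and 0 lower, where 11.1% of genes past the filter were higher and 23.6% lower, and 23 of the 43 had no UMI at low burden. Birc5 had 1724 UMIs at high and 0 at low burden, a log2 ratio of 3.85 with the 0 replaced by the limit of 3 counts. That value is not the lower end of an exact interval. Cks1b, Ube2c and Top2a had 1630, 1497 and 1223 UMIs against 1 each, with intervals whose lower ends were 2.87, 2.75 and 2.45. Pcna (879 against 15 UMIs) and Stmn1 (731 against 14) had ratios of 0.55 and 0.39 with intervals that include 0. In the ciliated cells and neutrophils the summed members also had a log2 ratio of 1.72 (1.38 to 2.06), and the G2/M list 2.65 (2.10 to 3.23), compared with 3.53 (3.03 to 4.08) in macrophages. The part of free RNA in the macrophage ratio was not tested.

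Dividing high-burden macrophages held fewer S gene UMIs than the dividing alveolar macrophages of the low-burden lung, 1033 and 2137 CPM (log2 ratio -1.05, -1.20 to -0.89), while the G2/M list was close at 3377 and 3867 CPM (-0.20, -0.31 to -0.08). Of the 43 members, 11 were 2-fold or more lower and 1 higher, where 25.1% of genes past the filter were lower and 12.7% higher. Pcna was at -1.58 (-1.92 to -1.21), Mcm7 at -1.65 (-2.20 to -1.05) and Rrm2 at -1.64 (-2.06 to -1.20). Cdc20 was the member that was 2-fold or more higher, at 1.29 (0.29 to 2.51), from 389 and 8 UMIs. The share lower (11 of 43) was near that of all genes. The median of ratios raises these values by 0.45, to -0.60 (-0.75 to -0.44) for the S list and 0.26 (0.15 to 0.37) for the G2/M list, which changes sign, and leaves 8 members lower and 3 higher. Cell type, burden and mouse differ together in this pair of classes and cannot be told apart. The call read 2000 UMIs of each cell, out of a median of 3242 in the dividing alveolar macrophages and 12549 in the dividing macrophages, so the UMIs that made the call weigh more in the former, and their part in the ratios was not tested.

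Dividing lymphoid cells were found at both burdens. The summed members were at 2020 CPM in 151 low-burden and 5147 CPM in 34 high-burden T or NK cells, a log2 ratio of 1.35 (1.24 to 1.46). Of the 31 members past the filter, 25 were 2-fold or more higher and 0 lower, where 9.57% of genes past the filter were higher and 13.1% lower. Tk1 had 26 and 6 UMIs at high and low burden (3.11, 1.80 to 4.68), Mcm3 34 and 13 (2.38, 1.42 to 3.43) and Ccnb1 23 and 11 (2.06, 0.97 to 3.24). These genes needed their high-burden counts to pass the filter, which favours higher calls. By their low-burden counts alone, 21 members reached the filter's minimum. Without the filter, 32 of 42 members were 2-fold or more higher, where 12.7% of all genes were. Stmn1 was at 275 and 306 CPM (-0.15, -0.55 to 0.23) and Mcm4 was at 23.4 and 26.9 CPM, both with intervals that include 0. Scaling by the median of ratios lowered the summed ratio to 1.09 and left 21 members higher. B cells, with 21 high-burden and 23 low-burden cells, had 4 and 0 dividing, and with 5 genes required 1 and 0. T, NK and B cells together were dividing in 17 of 174 low-burden cells (9.77%) and 26 of 55 high-burden cells (47.3%).

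In endothelial cells the G2/M list held 1216 CPM at high burden against 56.3 CPM at low burden, a log2 ratio of 4.43 (4.20 to 4.68), while the S list had a ratio of 1.31 (1.13 to 1.49). Of the 33 members past the filter, 28 were 2-fold or more higher, where 5.63% of genes past the filter were, and Stmn1 alone was 2-fold or more lower (5.58% of genes), at 219 CPM against 538 CPM (-1.3, -1.48 to -1.12). Cdk1 had 94 UMIs at high and 2 at low burden, Ccna2 54 and 1 and Top2a 134 and 4. Members that passed only through their high-burden counts had to differ, and the sums over all listed genes do not depend on that filter. The ciliated cells and neutrophils held 423 CPM of the G2/M list at high burden, and their log2 ratio was 2.65.

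In stromal cells the G2/M list held 517 CPM at high burden against 79.2 CPM at low burden, a log2 ratio of 2.71 (2.41 to 3.00) beside 2.65 (2.10 to 3.23) in the ciliated cells and neutrophils, so that neither the level nor the ratio stood apart from the non-dividing classes. Of 12 stromal members past the filter, 6 were 2-fold or more higher, where 5.17% of genes past the filter were. Birc5 had 32 and 2 UMIs, Top2a 28 and 6 and Cks1b 55 and 84 at high and low burden. In the ciliated cells and neutrophils 3 of 6 members past the filter were 2-fold or more higher, where 4.30% of genes past the filter were. At low burden 8 members had 20 UMIs or more in stromal cells, and 1 in the ciliated cells and neutrophils. The others needed their high-burden counts to pass the filter, which favours higher calls, so both counts are descriptions.

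A further 87 S phase and G2/M genes, which the call did not use, were read in the same cells. Of these, 78 of 87 were 2-fold or more higher in dividing than in other metastatic cells, where 4.49% of genes past the filter were, and 73 of 86 in macrophages, where 4.22% were. In high-burden endothelial cells 26 of 32 were higher (5.43% of genes past the filter), and in low-burden alveolar macrophages 21 of 22 (8.49%). In T or NK cells 17 of 20 were higher at high (14.8%) and 9 of 10 at low burden (10.4%). No member of the S or G2/M list reached the filter's minimum in the other high-burden T or NK cells, so the filter favoured higher calls there. Without the filter, 29 of 72 of these further genes were higher at high burden (12.98% of all genes). At low burden 58 of 59 were (28.51%). Between dividing metastatic cells and dividing macrophages, the highest ratios among the 87 were those of Sgol1 (1.53), which guards centromere cohesion, Anln (1.22), a scaffold of the cleavage furrow, and Kif18a (1.21), a kinesin of chromosome alignment. The lowest were those of Cep55 (-1.34), which acts in abscission, Fen1 (-0.86), which trims Okazaki fragments, and Gins1 (-0.84), a helicase subunit.

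Since the gates require class markers, every dividing cell carried some of them by construction, and their levels were compared with those of the other cells of the class. Dividing high-burden macrophages held C1qa at 4133 CPM and Csf1r at 446 CPM, against 4755 and 383 CPM in the macrophages not called dividing. Their metastatic markers summed to 105 CPM, against 110 CPM in the other macrophages and 1167 CPM in dividing metastatic cells, and Xist stood at 1014 CPM against 39.1 CPM in dividing metastatic cells. Macrophages that also met the metastatic gate were counted under several classes, which capped these markers in the draw for dividing and other macrophages alike. The likeness of 105 and 110 CPM was thus set in part by the gate, and how far was not tested. Dividing alveolar macrophages at low burden held Ear2, a ribonuclease of that cell type, at 5351 CPM, and none of the 10 metastatic markers had a UMI. These markers summed to only 1.36 CPM over all low-burden alveolar macrophages, so their absence says little about the dividing cells. Dividing T or NK cells at high burden held Cd3e at 411 CPM and Cd8a at 155 CPM with no UMI of the NK receptor gene Ncr1, and held C1qa at 150 CPM where the other T or NK cells held 870 CPM.

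In the 20 dividing endothelial cells the class markers were lower and the metastatic markers higher than in the other 102. The 11 endothelial markers summed to 5615 CPM against 11210 CPM, Pecam1 was at 469 CPM against 841 CPM, and the metastatic markers summed to 174 CPM against 109 CPM, with Hmga2 at 54.0 and 20.1 CPM. Xist was at 896 and 720 CPM. The part of tumour RNA or of mixed droplets in these cells was not tested.

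Cells left out of the classes also divided. Of the 1008 high-burden cells with no class, 442 were dividing (43.8%, 40.8% to 47.0%), and their metastatic markers summed to 756 CPM. When classes were taken from clusters instead, 56.0% of metastatic cells and 35.5% of macrophages were dividing. The metastatic cells then fell into 2 clusters, 1 of 900 cells with 69.9% dividing and 1 of 498 cells with 30.9% dividing. Dividing metastatic cells had a median of 25952 UMIs before thinning and the others 17390, and dividing macrophages 12549 and the others 9570.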

How the data were processed

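RNA was measured in single cells of 1 lung at each metastatic burden. The authors deposited raw UMI counts per gene and cell, made with Cell Ranger 2.0.2 on mm10 with the PYMT sequence added, and whether these counts precede the study's aggregation of the libraries is not stated. Library totals were 14041471 and 52723173 UMIs. Cells with 1000 to 7000 genes and at most 10% mitochondrial UMIs, the limits of the study, were kept and thinned to 2000 UMIs with a fixed seed (NumPy 2.4.6). Gates needed at least 2 of 10 metastatic, 4 of 10 macrophage, 4 of 10 alveolar macrophage, 3 of 11 T or NK, 3 of 8 B, 4 of 12 stromal, 5 of 11 endothelial, 6 of 10 alveolar type 2, 3 of 8 ciliated and 3 of 7 neutrophil markers. Macrophage gates took precedence over monocyte and dendritic gates. The gates were set after the cells had been seen, and 3 of 126 listed markers were not used here.

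UMIs were summed per class and scaled to CPM. Shares have Clopper-Pearson, ratios exact conditional binomial intervals (SciPy 1.17.1). The share that a count of 0 allows is 3 cells over the number of cells, which lies under the exact upper end. Ratios were read for genes with at least 20 UMIs over both groups, and a count of 0 was replaced by a limit of 3 counts for each group. Clusters were built with scanpy 1.11.5. Members and lists were chosen with earlier results of these data known. Any member may be named, and of the other 87 genes the 3 highest and 3 lowest ratios were named where their single values are given, beside Foxm1, chosen after its values were seen. Doublets were kept: Scrublet marked 16 of 5506 cells (0.291%), too few to have worked. The methods were tested on simulated data.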

Additional observations from a re-analysis of the deposited data

How the results depend on the processing

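The shares depended on the depth and on the number of genes required. With 2 genes of a list, they were 73.5% in metastatic cells and 54.0% and 8.16% in high- and low-burden macrophages. They were then 23.2% in low-burden alveolar macrophages, 17.9% in low-burden T or NK cells, 42.9% in high-burden B cells, 24.0% and 2.75% in stromal and 37.7% and 5.17% in endothelial cells at high and low burden. With 4 genes, they were 45.3% in metastatic cells, 26.0% in high-burden macrophages, 7.49% in alveolar macrophages, 9.02% in high-burden endothelial cells and 0% in stromal cells at both burdens and in low-burden endothelial cells. With 5 genes, a count chosen after seeing the data, these values were 36.2%, 20.3%, 6.28%, 8.2% and 0%, and 4.76% in high-burden B cells. At 3000 UMIs per cell, 607 shallower low-burden cells were left out and the shares were 68.0% in metastatic cells, 47.4% in high-burden macrophages, 16.3% in alveolar macrophages, 19.3% in low-burden T or NK cells, 0% in low-burden stromal and 1.71% in low-burden endothelial cells. At 5000 UMIs, which left out 1586 low-burden cells, they were 83.4% in metastatic cells, 68.0% and 8.33% in macrophages, 28.6% in alveolar macrophages, 82.4% and 54.2% in T or NK cells, 42.9% in high-burden B cells, 28.0% and 1.69% in stromal and 45.1% and 3.65% in endothelial cells, at high and low burden where both are given. The low-burden shares at 5000 UMIs come from the deeper cells alone, as low-burden T or NK cells had a median of 3198 UMIs. With all UMIs, also chosen after seeing the data, the shares were 98.6%, 89.3% and 17.6% in metastatic cells, high-burden macrophages and alveolar macrophages. In T or NK cells they were then 91.2% at high and 15.9% at low burden, and in high-burden B cells 52.4%. Stromal cells were at 50.0% and 2.54% and endothelial cells at 69.7% and 6.82%, at high and low burden.

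With the G2/M list alone the shares were 53.5% in metastatic cells, 28.9% in high-burden macrophages, 7.25% in alveolar macrophages, 5.96% in low-burden T or NK cells and 0% in low-burden stromal and endothelial cells. Without Stmn1, Pcna, Cks1b and Gmnn they were 50.1% in metastatic cells and 30.9% in high-burden macrophages. A second draw of UMIs or 1 more marker in the gate gave 0% in low-burden endothelial cells, and calling division in another draw than the class gave 0% in low-burden stromal cells. The stricter gate moved the summed log2 ratios to 1.16 in stromal cells, 0.89 in endothelial cells and 1.06 for metastatic over other cells. Scaling by the median of ratios moved them to 1.09 in T or NK cells and 0.82 for metastatic over other cells. Without the filter on low counts, 30 of 36 stromal members with a UMI were 2-fold or more higher, where 16.4% of genes were, and several rest on a few UMIs, such as Cenpe and Mki67 with 3 against 1 each. Except where the construction itself sets the change (depth, number or list of genes), the cause was not tested. The other 136 of 204 recomputed values moved by less than their counting error or, for counts, by less than 1.5 times. Metastatic cells had a higher share than high-burden macrophages under every setting run.

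No paired analysis was possible because each burden was 1 mouse and 1 library. The ciliated cells and neutrophils that give the background are few, 23 at high burden. The metastatic gate is sparse, and many high-burden cells fall in no class.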

Other observations

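Other genes also differed between dividing and other cells of a class, in a few genes chosen after their values were seen. Spp1, which encodes the secreted protein osteopontin, was at 4273 CPM in dividing and 12236 CPM in other metastatic cells. Cdkn2a, the locus of the cell cycle inhibitors p16 and p19ARF, was at 569 and 837 CPM, and Fosl1, an AP-1 factor, at 148 and 76.5 CPM. In high-burden macrophages the scavenger receptor gene Marco was at 68.2 CPM in dividing and 264 CPM in other cells. In low-burden alveolar macrophages Ear2 was at 5351 CPM in dividing and 8683 CPM in other cells. Foxm1, a transcription factor of the G2/M programme, was at 32.2 and 6.11 CPM in dividing and other metastatic cells, 16.8 and 4.52 CPM in high-burden macrophages, and 27.9 and 0 CPM in low-burden alveolar macrophages. The cells of each comparison come from 1 library, and no test was made.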
